A study of Mus musculus with 6 samples.

Results

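The Kennedy pathway makes phosphatidylethanolamine and phosphatidylcholine, the most abundant phospholipids of animal membranes, and 10 of its genes were followed here among the 56980 genes of the table. The genes are Chka, Chkb, Etnk1, Etnk2, Pcyt1a, Pcyt1b, Pcyt2, Chpt1, Cept1 and Selenoi, each matched by symbol to 1 row. They were picked by their place in the pathway because Pcyt2 differed between the groups, so the values of Pcyt2 are a description with no test. RNA was taken from ovaries of ICR mice, an outbred stock, in 3 FNZ and 3 control libraries. The FNZ animals received a daily intraperitoneal dose of 30 mg/kg over 7 days of a compound that the labels give only by these letters. The control animals were injected with the solvent, polyethylene glycol in saline, and the title of the study speaks of blocking T-type calcium channels. The labels give no age and do not say whether the 3 ovaries of a group came from separate mice, so p-values measure the spread between these samples, which may be technical.

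Each arm of the pathway has the same order of steps. A kinase phosphorylates choline or ethanolamine in the cytosol, a cytidylyl transferase joins the product to CTP in the slow, regulated step, and a phosphotransferase of internal membranes moves the headgroup onto diacylglycerol. Phosphatidylethanolamine also arises in mitochondria, where Pisd removes a carboxyl group from phosphatidylserine.

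Total expected counts per library ran from 19333493 to 22587113 in the FNZ ovaries and from 22027408 to 23406628 in the control ovaries. All 10 genes passed the filter on low counts. FNZ replicate 3 stood apart from the other FNZ libraries. Over the 15028 tested genes with an implied transcript length (the effective length that the ratio of counts to TPM gives), each library's distance from the mean of a gene followed length with a Spearman's rho of -0.57, 0.13 and -0.40 in FNZ replicates 2, 3 and 5, against 0.36, 0.35 and 0.42 in control replicates 2, 3 and 4. Control replicate 4 held 638.9 CPM (counts scaled to library size) summed over 4 markers of oviduct epithelium, against 5.92 to 41.9 CPM in the other libraries. Granulosa markers (8 genes) summed to 5769.8 to 6059.7 CPM in FNZ and 4945.9 to 5385.2 CPM in control ovaries, and theca and steroidogenic markers (6 genes) to 4190.5 to 5906.4 CPM in FNZ and 3573.8 to 4097.8 CPM in control ovaries. Both sums were higher in every FNZ library. Inha alone made up most of the granulosa sum, at a mean of 3550 CPM in FNZ and 2865 CPM in control ovaries. Within the theca list Cyp17a1 went the other way, at a mean of 355.6 CPM in FNZ and 563.4 CPM in control ovaries. Of all listed markers edgeR called 0, against 0.0% of all genes tested. DESeq2 called 2 of the 8 granulosa markers higher and, of the 6 theca markers, 2 higher and 1 lower. It also called 3 of the 6 macrophage markers and 1 of the 5 stroma markers lower. Over all genes with a DESeq2 adjusted p, 4.6% were called higher and 5.68% lower. The part of these cell types in the results below was not tested. Oocyte markers (8 genes, 378.7 to 838.6 CPM in FNZ and 449.9 to 722.9 CPM in control ovaries), stroma (5), endothelium (4), macrophage (6), red blood cell (5), adipocyte (5) and surface epithelium (4) markers overlapped between the groups, and no listed marker was at 0 in all libraries. In whole ovaries, fewer cells of a type and less RNA per cell cannot be told apart.

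Per unit of length, Chka had the highest level of the pathway in both groups and Pcyt1b the lowest, and Pcyt2 stood above both choline cytidylyl transferases in every library. TPM, a level scaled for both library size and transcript length, allows genes to be compared within a library. In FNZ ovaries the order of mean TPM was Chka (68.8), Pcyt2 (61.9), Chkb (57.8), Cept1 (42.1), Etnk2 (29.2), Chpt1 (23.5), Etnk1 (19.9), Pcyt1a (12.7), Selenoi (8.81) and Pcyt1b (4.07). Only Chka against Pcyt2 and Selenoi against Pcyt1b had ranges that did not overlap between neighbours in this order. In control ovaries the order was Chka (66.9), Cept1 (55.1), Pcyt2 (44.2), Chkb (39.0), Etnk2 (36.3), Chpt1 (35.9), Etnk1 (34.9), Pcyt1a (20.8), Selenoi (16.6) and Pcyt1b (4.18). There the ranges of Pcyt2, Chkb, Etnk2, Chpt1 and Etnk1 overlapped from each to the next, and every other pair of neighbours was apart. On the log2(TPM + 1) scale the median of all tested genes was lower in FNZ by 0.18 (log2 fold change -0.18), so TPM differences between the groups are read against that shift.

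**Figure D1:**
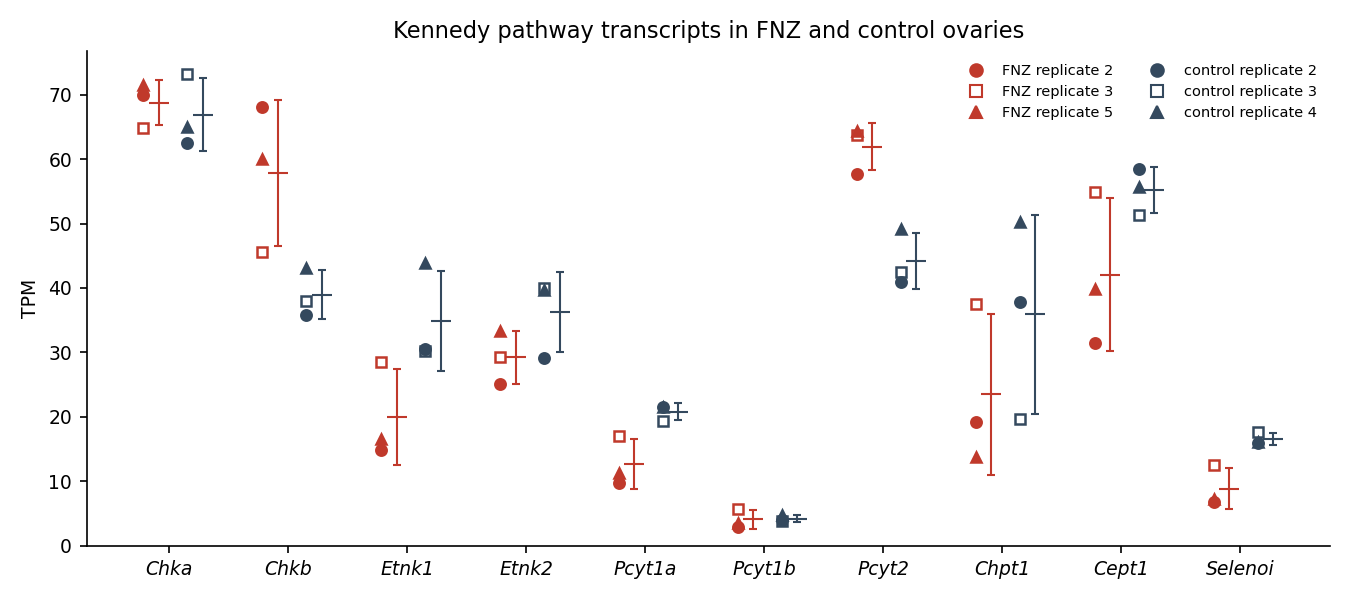
TPM of the 10 genes in each library, with FNZ (red) left of control (dark blue) and bars for the mean ± SD (n = 3 each). All FNZ libraries lie above all control libraries for Chkb and Pcyt2 and below them for Etnk1, Pcyt1a and Selenoi, and FNZ replicate 3 (open red square) is the FNZ library nearest the controls for these genes other than Pcyt2.

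Pcyt2 (ENSMUSG00000025137) encodes the ethanolamine-phosphate cytidylyl transferase, which makes CDP-ethanolamine. It measured 54.1, 50.5 and 54.3 CPM in FNZ replicates 2, 3 and 5, against 32.4, 34.9 and 35.0 CPM in control replicates 2, 3 and 4. Every FNZ library was above every control library, at 52.9 ± 2.16 CPM in FNZ and 34.1 ± 1.49 CPM in control ovaries (SD, n = 3 each). Pcyt2 was picked because its groups differed, so this gap is no support for a difference. Its log2 fold change was 0.63 ± 0.09 (SE), a ratio of 1.55, and it is given as the value that chose these genes. FNZ replicate 3 was the lowest FNZ library, by a small margin. Without that library the log2 fold change was 0.67, and it ran from 0.60 to 0.67 over the 6 fits that leave out 1 library. These fits describe the gene that chose the list and test nothing.

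Measured against the choline arm in the same library, Pcyt2 transcripts were 4.57, 2.79 and 4.33 times the summed TPM of Pcyt1a and Pcyt1b in FNZ replicates 2, 3 and 5, against 1.61, 1.83 and 1.86 times in control replicates 2, 3 and 4. This ratio holds Pcyt2 and is likewise a description. The genes whose log2 CPM followed Pcyt2 most closely over the 6 libraries, among 13463 genes of at least 1 TPM on average, were Aga (Pearson r = 0.9967), a lysosomal enzyme, Inha (r = 0.9959), the inhibin alpha subunit of granulosa cells, and Glt8d1 (r = 0.995). The 6 libraries hold both groups, so the correlations include the gap between them, and they carry no test. Inha, which is also on the list of granulosa markers, measured 3619.2, 3427.2 and 3604.8 CPM in the FNZ and 2778.9, 2943.6 and 2871.3 CPM in the control libraries.

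Neither choline cytidylyl transferase passed the test. Pcyt1a (ENSMUSG00000005615), the widely expressed form that binds membranes poor in phosphatidylcholine, measured 39.9, 55.7 and 43.3 CPM in FNZ replicates 2, 3 and 5, against 65.8, 58.3 and 65.9 CPM in control replicates 2, 3 and 4. Every FNZ library was below every control library, by a narrow margin for FNZ replicate 3, and the log2 fold change was -0.45 ± 0.14 (SE; edgeR quasi-likelihood test, adjusted p = 0.14). Pcyt1b (ENSMUSG00000035246), whose loss in mice disturbs the gonads, measured 12.1, 19.8 and 14.1 CPM in the FNZ and 12.7, 12.4 and 15.4 CPM in the control libraries. Its groups overlapped, and the log2 fold change was 0.19 ± 0.21 (edgeR adjusted p = 0.624), with FNZ replicate 3 the highest library and a value of -0.05 without it.

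Within each library, Pcyt1b took a larger share of the choline cytidylyl transferase transcripts in FNZ ovaries. It made up 22.9%, 25.3% and 24.0% of the summed TPM of Pcyt1a and Pcyt1b in FNZ replicates 2, 3 and 5, against 15.4%, 16.4% and 18.3% in control replicates 2, 3 and 4. The shares averaged 24.0% ± 1.19 in FNZ and 16.7% ± 1.47 in control ovaries (SD, n = 3 each), and FNZ replicate 3 lay with its own group. A two-sided exact permutation test gave p = 0.1, the smallest that 3 against 3 libraries allows (0.167 after Benjamini-Hochberg adjustment over 5 such shares).

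**Figure D2:**
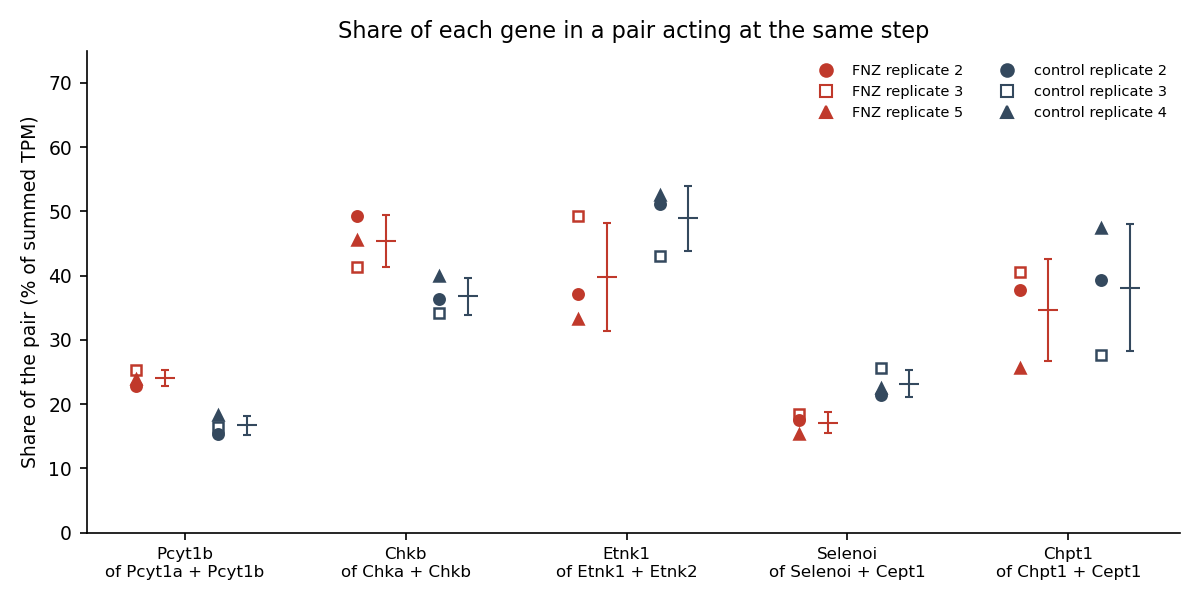
Share of the first gene in the summed TPM of a pair acting at the same step, in percent, with FNZ (red) left of control (dark blue) and bars for the mean ± SD (n = 3 each). The shares of Pcyt1b and Chkb are higher, and that of Selenoi lower, in every FNZ library than in every control library, while those of Etnk1 and Chpt1 overlap. The shares were chosen after seeing the data, and no rate over other pairs of genes was taken. Selenoi and Cept1 differ in transcript length, and the part of length in their share was not tested.

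The 5′ flanks of 4 genes are shown for their sequence context, as RefSeq windows of 250 bases before to 50 bases after the annotated start (GRCm38.p6, 5′ to 3′ on the gene's strand). Pcyt1a and Pcyt1b are shown as the pair whose share is given above, and Chkb and Selenoi as the genes that DESeq2 called in opposite directions. Capitals mark the motifs GGGCGG, known from Sp1 sites, then CCAAT, and finally TATAAA, on either strand, with overlapping matches counted separately.
Pcyt1a, chr16:32430671-32430970, plus strand: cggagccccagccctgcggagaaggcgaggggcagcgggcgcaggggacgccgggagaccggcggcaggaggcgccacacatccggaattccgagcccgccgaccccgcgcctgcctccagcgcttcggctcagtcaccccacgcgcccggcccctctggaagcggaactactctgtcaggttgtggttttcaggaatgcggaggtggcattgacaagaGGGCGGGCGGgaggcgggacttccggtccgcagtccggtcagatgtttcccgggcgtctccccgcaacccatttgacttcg
Pcyt1b, chrX:93654613-93654912, plus strand: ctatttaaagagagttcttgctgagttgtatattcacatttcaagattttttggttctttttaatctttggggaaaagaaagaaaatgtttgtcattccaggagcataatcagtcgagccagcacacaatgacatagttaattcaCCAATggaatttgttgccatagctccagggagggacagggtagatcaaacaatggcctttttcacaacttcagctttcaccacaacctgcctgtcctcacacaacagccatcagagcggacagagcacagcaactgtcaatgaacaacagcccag
Chkb, chr15:89429878-89430177, minus strand: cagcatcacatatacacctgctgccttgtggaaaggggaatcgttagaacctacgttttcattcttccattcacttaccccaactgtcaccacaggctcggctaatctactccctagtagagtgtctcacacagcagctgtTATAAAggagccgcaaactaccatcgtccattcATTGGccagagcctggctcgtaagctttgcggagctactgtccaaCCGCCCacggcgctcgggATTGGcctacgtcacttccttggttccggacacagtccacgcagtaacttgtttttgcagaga
Selenoi, chr5:30232331-30232630, plus strand: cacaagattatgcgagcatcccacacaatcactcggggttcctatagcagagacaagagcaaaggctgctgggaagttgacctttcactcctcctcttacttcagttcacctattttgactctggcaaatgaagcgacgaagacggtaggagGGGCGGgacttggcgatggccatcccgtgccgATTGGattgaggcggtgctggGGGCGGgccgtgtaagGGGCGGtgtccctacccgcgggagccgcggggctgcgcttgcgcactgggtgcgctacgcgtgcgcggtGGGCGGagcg
The windows shown hold 69.7%, 42.0%, 51.7% and 61.7% G and C, against a median of 52.7% over 32851 windows. For Pcyt1a and Pcyt1b only the first RefSeq window is shown. The others hold 65.7% and 63.3% G and C for Pcyt1a and 53.3% for Pcyt1b. The first RefSeq window of Pcyt1a has 2 overlapping matches to GGGCGG and that of Pcyt1b none, beside 1 to CCAAT. The Chkb window has 2 matches to CCAAT and 1 each to GGGCGG and TATAAA, and the Selenoi window 4 to GGGCGG and 1 to CCAAT. Windows were found for 9 of the 10 genes, all but Pcyt2, and 8 of the 9 had GGGCGG, 6 had CCAAT and 1 had TATAAA in at least 1 window. Of all windows, 35.7% hold GGGCGG, 37.4% CCAAT and 13.6% TATAAA. These are shares per window, whereas the counts of genes allow a match in any window. Pcyt1a, Pcyt1b and Cept1 have more than 1 window, so the counts and shares are not on the same scale. These matches are descriptions of the letters and were not tied to any value.

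Among the kinases, Chkb and Chka had higher and Etnk1 lower CPM in every FNZ library than in every control library, though none passed the edgeR test. For Chka and Etnk1 the nearest libraries of the groups were a narrow margin apart, and Etnk2 overlapped. Chkb (ENSMUSG00000022617), a choline and ethanolamine kinase whose loss causes muscular dystrophy in mice, measured 67.0, 37.4 and 51.5 CPM in FNZ replicates 2, 3 and 5, against 28.5, 29.9 and 33.5 CPM in control replicates 2, 3 and 4. The groups did not overlap, but the FNZ libraries were widely spread (52.0 ± 14.8 CPM in FNZ and 30.6 ± 2.57 CPM in control ovaries; SD, n = 3 each). Its log2 fold change was 0.76 ± 0.20 (SE; edgeR adjusted p = 0.133, DESeq2 adjusted p = 0.0172). In GENCODE M21 (GRCm38), Gm44502 covers 1552 of its 3061 exon bases on the same strand and C730034F03Rik covers 320 on the opposite strand. The table gave Gm44502 between 19.2 and 44.2 counts per FNZ library and between 6.9 and 36.1 per control library, against 670 to 1281 expected counts of Chkb.

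Chka (ENSMUSG00000024843), the related kinase needed for early embryos in mice, measured 94.8, 83.7 and 95.3 CPM in FNZ replicates 2, 3 and 5, against 77.5, 83.2 and 76.4 CPM in control replicates 2, 3 and 4. FNZ replicate 3 was above control replicate 3 by 0.5 CPM, and the log2 fold change of 0.21 ± 0.09 was not called (edgeR adjusted p = 0.233). In TPM its groups overlapped. Chkb made up 45.4% ± 4.03 of the summed TPM of the pair in FNZ and 36.8% ± 2.88 in control ovaries (mean ± SD over 3 libraries a group), and all 3 FNZ shares exceeded all control shares (exact permutation p = 0.1, adjusted 0.167).

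Etnk1 (ENSMUSG00000030275), a kinase specific to ethanolamine, measured 82.6, 130.7 and 86.9 CPM in FNZ replicates 2, 3 and 5, against 132.3, 131.5 and 186.9 CPM in control replicates 2, 3 and 4. FNZ replicates 2 and 5 were well below the controls, whereas FNZ replicate 3 was at the level of control replicates 2 and 3, and control replicate 4 was the highest library. The log2 fold change was -0.59 ± 0.22 (edgeR adjusted p = 0.177), or -0.83 without FNZ replicate 3 (edgeR adjusted p = 0.0246) and -0.40 without control replicate 4. Etnk2 (ENSMUSG00000070644), whose loss in mice harms the placenta, overlapped between groups at 44.9, 43.5 and 55.8 CPM in the FNZ and 41.5, 56.2 and 55.4 CPM in the control libraries (log2 fold change -0.09 ± 0.15, edgeR adjusted p = 0.763). The share of Etnk1 in the ethanolamine kinase pair was 39.9% ± 8.40 in FNZ and 48.9% ± 5.10 in control ovaries, with overlapping values (exact permutation p = 0.2, adjusted 0.25).

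At the last step, Selenoi was at a lower level in every FNZ library than in every control library, without passing the edgeR test, and the other phosphotransferases overlapped. Selenoi (ENSMUSG00000075703), a selenoprotein of the Golgi that transfers phosphoethanolamine, measured 32.6, 42.2 and 34.9 CPM in FNZ replicates 2, 3 and 5, against 52.7, 49.9 and 46.9 CPM in control replicates 2, 3 and 4. All FNZ libraries were below all control libraries, and the log2 fold change was -0.45 ± 0.12 (edgeR adjusted p = 0.133, DESeq2 adjusted p = 0.0406). Cept1 (ENSMUSG00000040774), which makes both phospholipids in the endoplasmic reticulum, measured 50.4, 49.0 and 53.3 CPM in the FNZ and 50.7, 43.0 and 41.7 CPM in the control libraries, with overlap (log2 fold change 0.17 ± 0.11, edgeR adjusted p = 0.367). Chpt1 (ENSMUSG00000060002), the cholinephosphotransferase of the Golgi, varied widely within both groups, at 45.8, 73.3 and 37.0 CPM in the FNZ and 63.9, 39.8 and 73.4 CPM in the control libraries (log2 fold change -0.18 ± 0.31, edgeR adjusted p = 0.758). Selenoi made up 17.6%, 18.5% and 15.3% of the summed TPM of Selenoi and Cept1 in FNZ replicates 2, 3 and 5, against 21.5%, 25.6% and 22.5% in control replicates 2, 3 and 4, a lower share in every FNZ library (exact permutation p = 0.1, adjusted 0.167). Among all tested genes of like implied length, the median log2 fold change was -0.22 at the length of Selenoi and 0.18 at that of Cept1. The part of length in this share was not tested. The share of Chpt1 in its pair with Cept1 overlapped (34.7% ± 7.91 in FNZ and 38.1% ± 9.93 in control ovaries; exact permutation p = 0.6).

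Counted over the pathway, 5 of the 10 genes had a positive and 5 a negative log2 fold change, with a median of 0.04 against 0.01 over all 17735 genes tested. edgeR called 0 of the 9 genes other than Pcyt2, against 0.0% of all genes tested at a Benjamini-Hochberg adjusted p under 0.05. At an unadjusted p under 0.05 edgeR had 4 of the 9, namely Chkb, Selenoi, Pcyt1a and Etnk1, against 23.2% of all genes. DESeq2 called 2 of the 9, Chkb higher and Selenoi lower, against 10.3% of the genes to which it gave an adjusted p (4.6% higher, 5.68% lower). The authors' deposited table likewise had adjusted p under 0.05 for Chkb (log2 fold change 0.74, adjusted p = 0.0174) and Selenoi (log2 fold change -0.47, adjusted p = 0.0408), against 4.47% higher and 5.55% lower among the genes with an adjusted p below 1 in that table. In CPM the groups did not overlap for 5 of the 9 (2 higher, 3 lower), against 29.6% of all genes, and in TPM for 4 of the 9, against 31.5%. Without FNZ replicate 3, edgeR called 4 of the 9 (Chkb higher; Etnk1, Pcyt1a and Selenoi lower), against 17.6% of all genes in that fit (7.99% higher, 9.64% lower).

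FNZ replicate 3 was the FNZ library nearest to the control mean, in CPM, for 8 of the 10 genes (Pcyt2 included), the exceptions being Etnk2 and Pcyt1b. The same count over all tested genes was not taken, so it is not read as a trait of the pathway. The fold changes of the 9 genes other than Pcyt2 followed the length of their transcripts. The effective length implied by the ratio of counts to TPM in a library ran from 1072 bases for Pcyt2, 1099 for Chkb, 1346 for Cept1, 1651 for Chka, 2003 for Etnk2 and 2645 for Chpt1 to 4425 for Pcyt1a, 4639 for Pcyt1b, 4762 for Selenoi and 6185 for Etnk1 (means over 6 libraries). Across the 9 genes the log2 fold change was lower at greater length (Spearman's rho = -0.77, n = 9), and across all tested genes with an implied length likewise (rho = -0.52, n = 15028). These are correlations across genes that share libraries, and genes are not independent replicates. The table's own length column gives 1791 bases for Etnk1, although its implied length of 6185 bases is nearer the longest of its 4 annotated transcripts (6575 bases in GENCODE M21).

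The tested genes with an implied length were put in 20 bins of about equal size. Chkb lay 0.54 above the median log2 fold change of its bin, Pcyt2 0.41 above and Pcyt1b 0.40 above. Etnk1, Pcyt1a and Selenoi lay below theirs by smaller amounts (-0.28, -0.23 and -0.23). Cept1, Chka, Etnk2 and Chpt1 were within 0.13 of their bin. With the implied length as a correction in the edgeR fit, the log2 fold changes were 0.55 for Chkb, 0.44 for Pcyt2 and 0.41 for Pcyt1b, against -0.29 for Etnk1, -0.24 for Pcyt1a and -0.21 for Selenoi, and edgeR called none of the 9 genes other than Pcyt2 (adjusted p from 0.218 to 0.927), as before the correction. The value of Pcyt1b leaned on FNZ replicate 3, its highest library. Corrected by the table's own lengths it was 0.36 with all libraries and 0.19 without FNZ replicate 3. Uncorrected, Pcyt1b was -0.05 without that library.

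**Figure D3:**
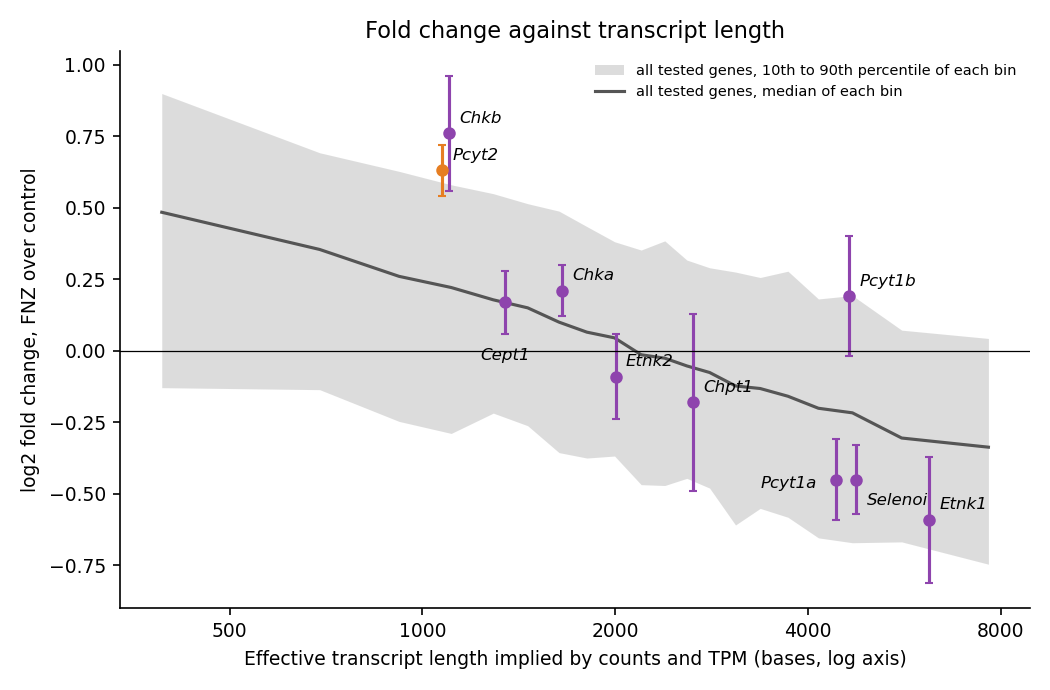
log2 fold change (FNZ over control, with SE bars) of the 10 genes against their implied effective length on a log axis, with the median (line) and the 10th to 90th percentile (grey) of all tested genes in 20 bins of length. Fold changes of all genes fall with length, Chkb (0.76) and Pcyt2 (0.63, orange) lie above the grey band, and Pcyt1b (0.19) is near its upper edge, above Pcyt1a and Selenoi (-0.45 each) of like length. Without FNZ replicate 3 the value of Pcyt1b was -0.05.

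For Cept1 and Selenoi the implied length itself was greater in FNZ replicates 2 and 5 than in any control library. Cept1 had implied lengths of 1775, 1201 and 1575 bases in FNZ replicates 2, 3 and 5, against 1241, 1196 and 1086 bases in control replicates 2, 3 and 4. FNZ replicate 3 was within the control range and the other FNZ libraries were above it. The log2 ratio of the group means was 0.37, at percentile 99.1 of 10169 genes with at least 200 counts in every library, where the median was -0.002. Selenoi had 5366, 4554 and 5692 bases in the FNZ and 4724, 4024 and 4215 bases in the control libraries (log2 ratio 0.27, percentile 97.9), with FNZ replicate 3 again inside the control range. Chpt1 had 2657, 2627 and 3154 bases in the FNZ and 2417, 2892 and 2121 bases in the control libraries, with overlap (log2 ratio 0.18, percentile 95.5).

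The mean TPM of Cept1 was lower in FNZ ovaries, at 42.1 ± 11.9 TPM against 55.1 ± 3.57 TPM in control ovaries (SD, n = 3 each), while its CPM was not, and limma on log2(TPM + 1) gave it a log2 fold change of -0.42 (adjusted p = 0.222). Selenoi had -0.89 on that scale (limma adjusted p = 0.136), against -0.45 from counts. The median of all tested genes was -0.18 on that scale and 0.01 from counts. GENCODE M21 annotates 7 transcripts of 357 to 2814 bases for Cept1 and 8 of 516 to 6803 bases for Selenoi, and RefSeq gives Cept1 3 starts spread over 4656 bases. Per-transcript values were not used here, so the lengths do not say which transcripts differed. Dennd2d lies opposite 771 of the 3116 exon bases of Cept1 and Sycp3 opposite 660 of the 8324 of Chpt1, and no source used here states a strand setting for the counts.

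**Figure D4:**
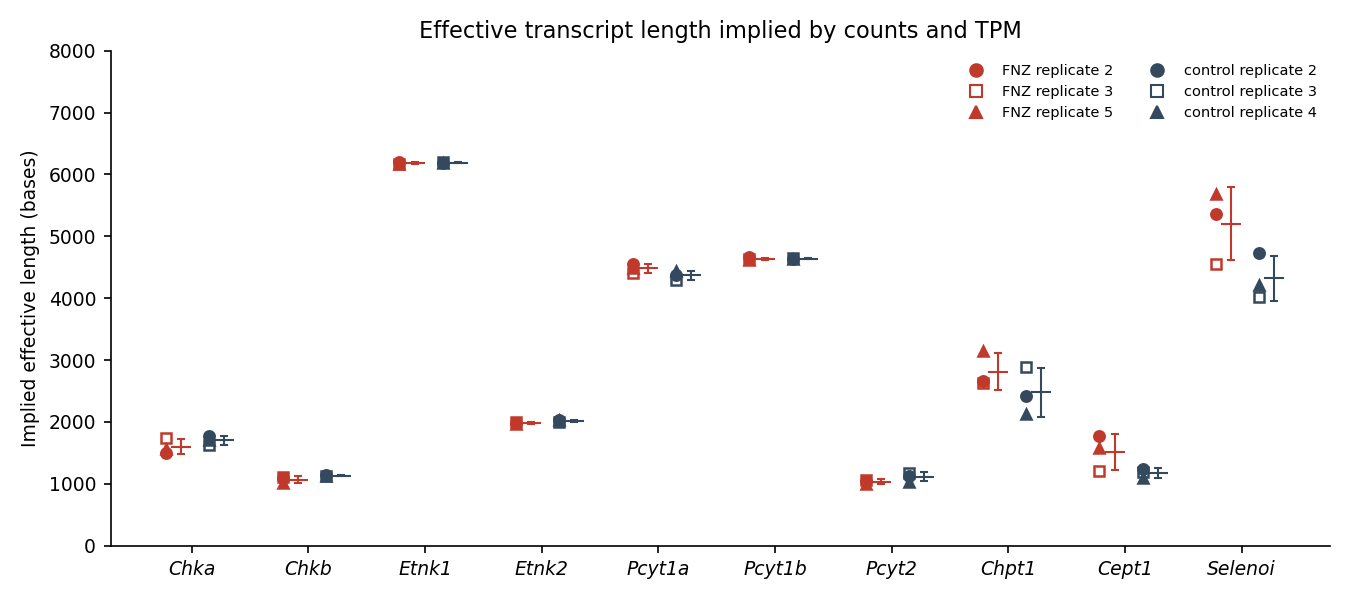
Effective transcript length in bases implied by counts and TPM, per library, with FNZ (red) left of control (dark blue) and bars for the mean ± SD (n = 3 each). Etnk1 (6168 to 6202 bases) and Pcyt1b (4622 to 4661 bases) vary little between libraries, whereas Cept1 and Selenoi are longer in FNZ replicates 2 and 5 than in the controls, with FNZ replicate 3 (open red square) among the controls.

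The fold changes of Chkb, Chka, Etnk1, Etnk2, Pcyt1a and Selenoi kept their sign in each of the 19 other fits tried. Those of Cept1, Chpt1 and Pcyt1b did not. All fits draw on the same libraries. Pcyt2 ran from 0.44 to 0.68, a description only, since it was picked because its groups differed. Chkb ranged from 0.54 to 0.95 on the log2 scale. Selenoi ranged from -0.89 to -0.19, Etnk1 from -0.95 to -0.29 and Pcyt1a from -0.71 to -0.24.

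**Figure D5:**
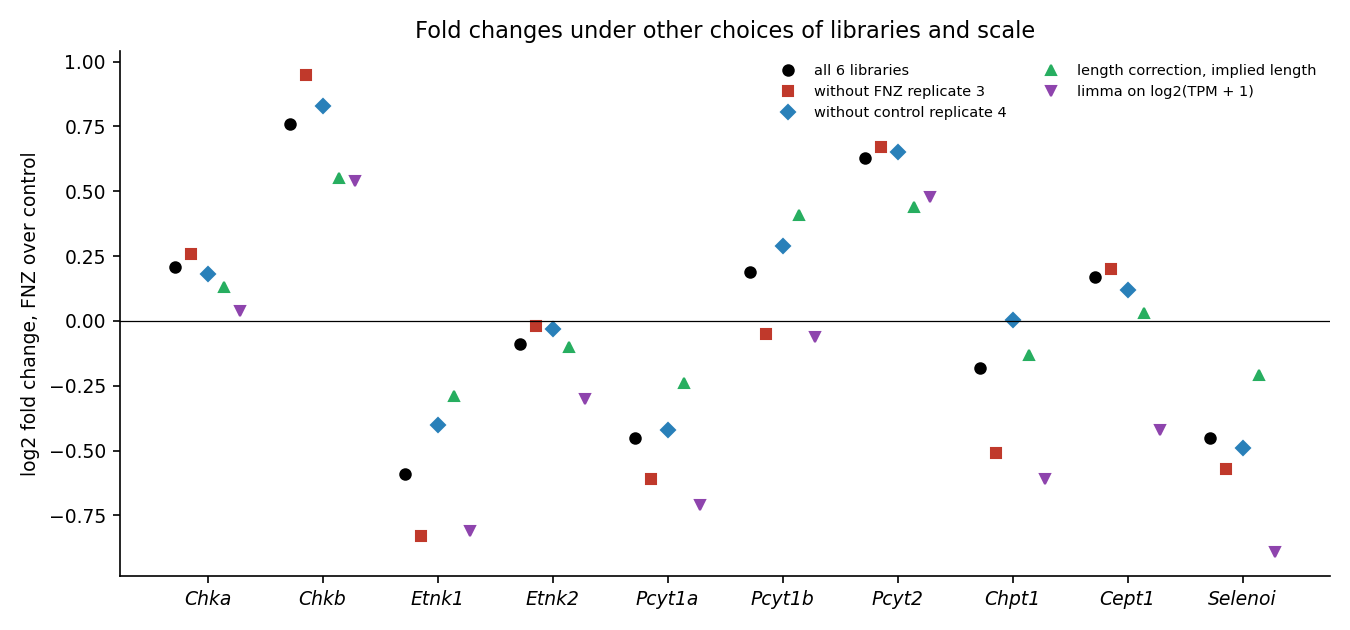
log2 fold change (FNZ over control) of the 10 genes in all 6 libraries and under 4 other choices of libraries, length correction and scale. Chkb is positive and Etnk1, Pcyt1a and Selenoi negative under every choice plotted, and Cept1 turns negative (-0.42) on the log2(TPM + 1) scale. On that scale the median of all tested genes was -0.18. Pcyt2, positive throughout, is the gene that chose the list and is shown as a description.

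Of 70 related phospholipid genes, 68 were tested, and edgeR called 0 and DESeq2 1 of them (Gpat4, lower), against 0.0% of the genes tested by edgeR and 5.68% called lower by DESeq2. Their median log2 fold change was -0.02 (32 positive, 36 negative), and in 14 of the 68 the groups did not overlap (5 higher, 9 lower), against 29.6% of all genes. Without FNZ replicate 3, edgeR called 6 of the 68, against 17.6% of all genes in that fit. Crls1 was higher (7.99% of all genes), and Gpat4, Cds2, Samd8, Sgpl1 and Agps were lower (9.64% of all genes).

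Among genes of phosphatidylethanolamine and phosphatidylcholine interconversion and of decarboxylation (4 tested, 2 positive, median log2 fold change 0.02), edgeR and DESeq2 called 0. Pisd, the mitochondrial decarboxylase, measured 46.2 ± 2.42 CPM in FNZ and 51.0 ± 2.91 CPM in control ovaries (SD, n = 3 each; log2 fold change -0.14 ± 0.10, edgeR adjusted p = 0.399). Ptdss2, which makes phosphatidylserine from phosphatidylethanolamine, averaged 43.4 ± 2.33 CPM in FNZ and 39.0 ± 4.11 CPM in control ovaries (0.15 ± 0.11 on the log2 scale; adjusted p by edgeR = 0.441). Neither group of values was apart from the other.

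Of the genes that supply diacylglycerol, 16 were tested (3 positive, 13 negative, median log2 fold change -0.12), with 0 called by edgeR. The median was -0.10 with the correction for implied length. Over all tested genes the medians were 0.01 and, with that correction, 0.02. The share of negative genes over all tested genes was not taken, so the signs are a description. Gpat4, a glycerol-3-phosphate acyltransferase of the endoplasmic reticulum, measured 64.0, 101.9 and 70.6 CPM in FNZ replicates 2, 3 and 5, against 118.6, 114.2 and 114.8 CPM in control replicates 2, 3 and 4 (log2 fold change -0.56 ± 0.17, edgeR adjusted p = 0.14, DESeq2 adjusted p = 0.0398; without FNZ replicate 3, edgeR adjusted p = 0.00898). Its groups did not overlap, with FNZ replicate 3 nearest the controls, and the log2 fold change was -0.38 with the correction for implied length. For Lpin2, a phosphatidate phosphatase, edgeR gave -0.37 ± 0.12 on the log2 scale (adjusted p = 0.153), or -0.15 with that correction. In the branch that starts from CDP-diacylglycerol (7 tested, 4 positive, median 0.02), Cds2, a CDP-diacylglycerol synthase, had -0.38 ± 0.11 (edgeR adjusted p = 0.138), or -0.05 with the length correction. Crls1, which makes cardiolipin, had 0.43 ± 0.17 (edgeR adjusted p = 0.193). Without FNZ replicate 3 their edgeR adjusted p were 0.0137 for Cds2 and 0.0496 for Crls1.

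Among genes of choline and ethanolamine supply (11 of 13 tested, 4 positive, median log2 fold change -0.15), Flvcr1, a choline transporter, measured 23.5 ± 3.48 CPM in FNZ and 30.3 ± 2.13 CPM in control ovaries, with no overlap (log2 fold change -0.36 ± 0.14, edgeR adjusted p = 0.178). Sgpl1, the lyase that releases phosphoethanolamine from sphingosine phosphate, had -0.32 ± 0.13 (edgeR adjusted p = 0.198), or -0.18 with the length correction, and an edgeR adjusted p of 0.029 without FNZ replicate 3. Of the genes of breakdown (10 tested, 7 positive, median 0.07, or 0.03 with the length correction) edgeR and DESeq2 called 0. Abhd4 and Napepld, enzymes on the route from phosphatidylethanolamine to N-acylethanolamines, stood at 0.34 ± 0.12 and 0.33 ± 0.14 on the log2 scale (adjusted p by edgeR 0.166 and 0.217), each with every FNZ library above every control library.

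Acyl chain remodelling (11 tested, 6 positive, median log2 fold change 0.06), ether lipid synthesis (6 tested, 4 positive, median 0.01) and sphingomyelin synthesis (3 tested, 2 positive, median 0.12) had 0 genes called by edgeR or DESeq2. Their genes with the smallest p were Lpcat1 and Lpcat2, lysophosphatidylcholine acyltransferases (-0.28 ± 0.13 and -0.51 ± 0.26), Agps and Far2 of ether lipids (-0.30 ± 0.17 and 0.54 ± 0.39), and Samd8 and Sgms1 of sphingolipid synthesis (-0.38 ± 0.20 and 0.12 ± 0.11), as log2 fold changes with SE and edgeR adjusted p from 0.232 to 0.531. With the length correction the log2 fold changes were -0.04 for Agps, -0.13 for Samd8 and 0.22 for Sgms1. Without FNZ replicate 3, edgeR called Agps (adjusted p = 0.0446) and Samd8 (adjusted p = 0.0116).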

How the data were processed

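RNA of 6 mouse ovary libraries was sequenced as poly(A) RNA, per the labels' protocols. The submitters' processing notes name bcl2fastq 2.20, DESeq2 1.38.3 and the build GRCm39, while the sources used here name no aligner, counting program or strand setting. The single table holds expected counts per gene, as the authors deposited them (12.0% to 14.8% of values per library are not whole), the authors' deposited TPM of each library, and the authors' deposited log2 fold change and adjusted p-value. Group means of TPM (2 columns) were left aside. Replicate numbers follow the sample titles.

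Expected counts were rounded, and edgeR 4.0.16 under R 4.3.3 gave the tests (TMM, filterByExpr, glmQLFit with robust = TRUE, two-sided quasi-likelihood F test, Benjamini-Hochberg adjustment over 17735 genes, threshold 0.05), where the plan had named counts. The SE is the log2 fold change divided by the root of F. CPM uses TMM-scaled library sizes, and SDs are over 3 libraries. DESeq2 1.42.0, limma 3.58.1 (voom, and its trend method on log2 of TPM plus 1), other scalings and filters, a loess correction for gene length (span 0.3), replicate blocks and leaving out each library were alternatives. The edgeR, DESeq2, limma voom and length-corrected edgeR fits (the last with the table's own lengths) were tested on simulated counts. The simulation had the same dispersion for every gene, no length trend and no deviating library. The other fits were not tested in this way. The implied effective length is counts over TPM, scaled in each library by a Theil-Sen line through 339 genes with 1 annotated transcript. Shares were tested by exact permutation with scipy 1.17.1. No counting interval is given, since PCR copies a molecule into many reads.

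The 10 genes and all lists were chosen with earlier results of these data known, and the shares and implied lengths after seeing the data. The text names all 10 genes, from each related list the 2 with the lowest p by edgeR and the 3 genes most like Pcyt2 (Pearson r of log2 CPM, leaving out predicted and clone names). GENCODE M21 and RefSeq tables are of GRCm38, and no coordinates of the 2 builds were joined.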

Additional observations from a re-analysis of the deposited data

How the results depend on the processing

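edgeR called 0 of the 9 genes other than Pcyt2 and 0 of all genes tested. DESeq2 called 2 of the 9 and 1510 of all genes. Over the fits without 1 library the counts ran from 0 to 4 of the 9 and from 0 to 3230 of all genes, the high ends being without FNZ replicate 3, when Chkb, Etnk1, Pcyt1a and Selenoi were called. The length correction without FNZ replicate 3 called 2 of the 9 (Chkb and Etnk1) and 653 of all genes. It used the table's own lengths, which are short for Etnk1. Over all genes, no filter gave 183 calls, limma voom 2, limma on log2(TPM + 1) 1, and the length correction 2 with deposited and 2 with implied lengths, the last added after seeing the data. The cause of these differences was not tested.

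The direction of 3 genes turned. Pcyt1b was -0.06 on log2(TPM + 1) and -0.05 without FNZ replicate 3, at the low end of -0.05 to 0.34 over the fits without 1 library. Cept1 was -0.42 on log2(TPM + 1). The median of all tested genes on that scale was -0.18, which lies below the value of Pcyt1b and above that of Cept1. Chpt1 was 0.20 with the replicate block by title number, 0.01 without FNZ replicate 5 and 0.0033 without control replicate 4, and it ran from -0.51 to 0.01 over the fits without 1 library.

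Deviations of libraries with the same title number had correlations of -0.09 and -0.15, inside the range of pairs with unlike numbers (-0.34 to 0.40). With 3 libraries a group, such correlations cannot say whether libraries of the same number share a batch. The replicate block by title number, on replicates 2 and 3 alone, called 27 genes, and the block by library name number 2 genes. Neither block called any of the 9. Pcyt1b had the fewest expected counts of the 10 genes, at 232 to 446 per library.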
